A study of Saccharomyces cerevisiae with 25 samples.

Results

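Between 105 and 195 min after phosphate was withdrawn, transcripts of stress and storage-carbohydrate genes rose and those of ribosome-making genes fell in budding yeast with a weakened allele of PHO85. The comparison set the libraries of 165, 180 and 195 min (the later window) against those of 105, 120 and 135 min (the earlier window). Its members were the genes with a deposited value in all 6 of these libraries, which were 3052 of the 6650 named rows and of the 5669 genes with a value anywhere. The libraries belong to a single RNA sequencing time course of 25 libraries in Saccharomyces cerevisiae, 1 from high-phosphate medium at 0 min and the others at 15 min steps up to 360 min in no-phosphate medium. All cells, in both windows, were BY4741, a haploid laboratory strain, with the genotype pho84pr-YFP, pho85 damp. The first element places a fluorescent protein under the PHO84 promoter, and the second is a DAmP allele, a design that lowers the abundance of a messenger RNA without deleting the gene. The windows therefore differ in time without phosphate and in no labelled treatment, and a strain with unaltered PHO85 is not analysed here. Each time point is 1 library, so consecutive time points stood in for replicates, and a p-value here reflects only how far these libraries of 1 time course scatter.

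Yeast senses phosphate through the PHO pathway. While phosphate is plentiful, the kinase Pho85 with its cyclin Pho80 phosphorylates the transcription factor Pho4 and keeps it out of the nucleus. When phosphate runs short, the inhibitor Pho81 holds the kinase back, and Pho4 with Pho2 turns on genes for phosphate transporters, secreted phosphatases and polyphosphate enzymes. Pho85 with other cyclins also acts on glycogen enzymes and on nutrient signalling, where protein kinase A and TORC1 favour ribosome production and the kinase Rim15 and the factors Msn2 and Msn4 favour a stress-resistant resting state. Ribosome production itself is run by separate gene groups, the ribosomal proteins and the assembly factors of the ribosome biogenesis group, which rest on different promoter elements.

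The 195 min library was shallow and shaped the membership. The other 5 libraries held 977433 to 1981423 listed reads, and the 195 min library held 192943. Values are log2 reads per 1000000 listed reads (RPM), and genes under 10 reads are blank in that library, so the lowest level that could be listed at 195 min was 51.8 RPM, against 5.05 to 10.2 RPM in the other libraries. A gene that fell below 51.8 RPM at 195 min left the comparison, whereas one that rose above it stayed. A member under 51.8 RPM in every earlier library was therefore testable only because its 195 min value was higher, so that rise was part of the choice. Of the 1803 genes listed in 5 of the 6 libraries, 1787 were missing at 195 min alone, and 147 members sat at its lowest value. For PHO85 itself the 105 min library gave 5.05 RPM and the 165 min library 6.46 RPM, and the other 4 libraries gave no value. The a-mating-type genes MFA1, MFA2 and STE2 were listed in all 6 libraries, and none of the 6 tested a-type markers was called. Of the alpha-type markers STE3 (23.2 to 44.0 RPM) and SAG1 (7.57 to 23.9 RPM) were listed in 5 of the 6 libraries, MF(ALPHA)1 in 1 and MF(ALPHA)2 in none.

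Promoters of 5 genes on which the results turn are printed first, because short promoter strings accompany the gene groups described below. Each runs from 250 bases before to 50 bases after the annotated start, which in this annotation is the start of the coding sequence. They were read 5′ to 3′ on the gene's own strand from the RefSeq sequence of the R64 build. Capitals mark any match, on either strand, to AGGGG (the stress response element), CACGTG (the core of Pho4 sites), GATGAG (the PAC element) or AAAATTTT (the RRPE element). HSP12 and TSL1 were among the largest rises, NSR1 and NOP7 among the largest falls, and SPL2 is a phosphate pathway target whose window held more CACGTG matches than that of any other printed gene.
HSP12 (chrVI:107006-107305, plus strand): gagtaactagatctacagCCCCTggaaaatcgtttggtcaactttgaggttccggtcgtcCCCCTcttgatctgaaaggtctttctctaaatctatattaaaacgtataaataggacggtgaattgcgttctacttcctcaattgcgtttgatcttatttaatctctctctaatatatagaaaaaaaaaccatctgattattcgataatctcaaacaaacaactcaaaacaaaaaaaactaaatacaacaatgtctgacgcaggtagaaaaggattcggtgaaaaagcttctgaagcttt
TSL1 (chrXIII:70374-70673, plus strand): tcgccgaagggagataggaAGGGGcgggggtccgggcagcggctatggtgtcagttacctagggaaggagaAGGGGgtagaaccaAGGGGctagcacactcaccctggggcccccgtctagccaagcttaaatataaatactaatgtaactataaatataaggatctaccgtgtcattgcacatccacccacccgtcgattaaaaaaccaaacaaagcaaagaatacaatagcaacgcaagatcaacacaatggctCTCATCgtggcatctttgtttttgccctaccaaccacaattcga
NSR1 (chrVII:807607-807906, minus strand): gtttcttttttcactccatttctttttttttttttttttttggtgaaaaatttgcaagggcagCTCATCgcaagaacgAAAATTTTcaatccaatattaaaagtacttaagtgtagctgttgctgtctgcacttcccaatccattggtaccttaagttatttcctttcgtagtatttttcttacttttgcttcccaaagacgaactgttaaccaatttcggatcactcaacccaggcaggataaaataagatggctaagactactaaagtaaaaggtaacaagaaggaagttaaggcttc
NOP7 (chrVII:695167-695466, plus strand): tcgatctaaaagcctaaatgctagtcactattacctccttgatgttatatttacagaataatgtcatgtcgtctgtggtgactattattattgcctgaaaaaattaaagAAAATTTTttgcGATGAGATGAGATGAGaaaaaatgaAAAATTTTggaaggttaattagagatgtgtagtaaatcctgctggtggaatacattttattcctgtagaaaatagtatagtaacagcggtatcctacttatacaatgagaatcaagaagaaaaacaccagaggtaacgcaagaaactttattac
SPL2 (chrVIII:375051-375350, minus strand): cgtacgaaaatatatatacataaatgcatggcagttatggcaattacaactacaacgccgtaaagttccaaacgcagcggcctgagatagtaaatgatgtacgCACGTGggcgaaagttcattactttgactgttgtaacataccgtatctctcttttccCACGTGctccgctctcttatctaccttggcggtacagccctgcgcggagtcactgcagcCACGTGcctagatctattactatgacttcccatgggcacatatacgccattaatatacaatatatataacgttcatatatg

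Of the 3052 genes, 1055 changed between the windows (34.6%; limma, Benjamini-Hochberg adjusted p below 0.05 over all genes tested). The later window was higher for 756 genes (24.8%) and lower for 299 genes (9.8%). An unadjusted p below 0.05 was reached by 1420 genes. The values of the windows did not overlap for 1650 genes (54.1%). Of the higher genes 74 differed more than 4-fold and 18 more than 8-fold, and of the lower genes 6 differed more than 4-fold. These sizes cannot be set against each other, since the listing limit at 195 min removes deep falls and keeps rises. The median change of all tested genes was 0.36 on the log2 scale, while the mean share of reads from ribosomal protein messages went from 32.2% to 16.2%. Scaled to the reads outside those messages, the median was 0.06, with 351 genes higher and 406 lower. With each library centred on the median of the tested genes, 308 genes were higher (10.1%) and 422 lower (13.8%), and no gene called at the deposited scale changed sign. With the 195 min library left out, an alternative chosen after seeing the data, 4839 genes could be tested, of which 998 were higher (20.6%) and 515 lower (10.6%). With the members kept as they were, 462, 499 or 649 genes were called without the 105, 120 or 135 min library, and 1287, 579 or 1224 without the 165, 180 or 195 min library. In total RNA from a mixed culture, fewer cells with a message and less of it per cell cannot be told apart.

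The largest rise was that of PGM2, the main phosphoglucomutase, which links glucose 6-phosphate to glucose 1-phosphate for storage carbohydrates. PGM2 stood at 41.9, 46.4 and 42.9 RPM at 105, 120 and 135 min and at 348, 678 and 1752 RPM at 165, 180 and 195 min, a log2 change of 4.09 ± 0.43 (SE, n = 3 per window; limma adjusted p = 6.65e-05). Its 3 earlier values lay close together and its 3 later values climbed with time, with 136 RPM in between at 150 min. GPH1, glycogen phosphorylase, went from 31.3, 44.5 and 30.3 to 301, 553 and 513 RPM (log2 change 3.66 ± 0.27, limma adjusted p = 9.46e-06). GLC3, the glycogen branching enzyme, went from 13.1, 12.3 and 19.1 to 136, 152 and 218 RPM (3.51 ± 0.30, limma adjusted p = 3.22e-05). TSL1, a regulatory subunit of the trehalose synthase complex, was at 27.8, 23.7 and 27.7 RPM and then at 207, 148 and 404 RPM (3.14 ± 0.32). Enzymes that build and enzymes that break down glycogen and trehalose were thus both among the rises, and PGM2 carried the largest change. The glycogen and trehalose list held 13 tested genes, of which 11 rose and 0 fell, with a median log2 change of 2.12 beside 0.36 for all tested genes, and 9 to 12 rose when any 1 library was left out. The others that rose were UGP1, GSY2, TPS2, NTH1, ATH1, PIG2 and NTH2. PGM1 and TPS1 did not pass the test: TPS1, trehalose 6-phosphate synthase, stood at 105, 107 and 97.6 RPM and then at 309, 293 and 93.3 RPM, so its 195 min value alone was below the earlier values while the other later values were above them. PGM2, GPH1, GLC3 and TSL1 were under the 51.8 RPM limit in every earlier library, so a lower value at 195 min could not be recorded for them. With the 195 min library left out and its missing genes admitted, 14 of 16 list genes rose and 0 fell, with a median of 1.77. Of all genes in that fit, 20.6% rose and 10.6% fell.

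**Figure D1:**
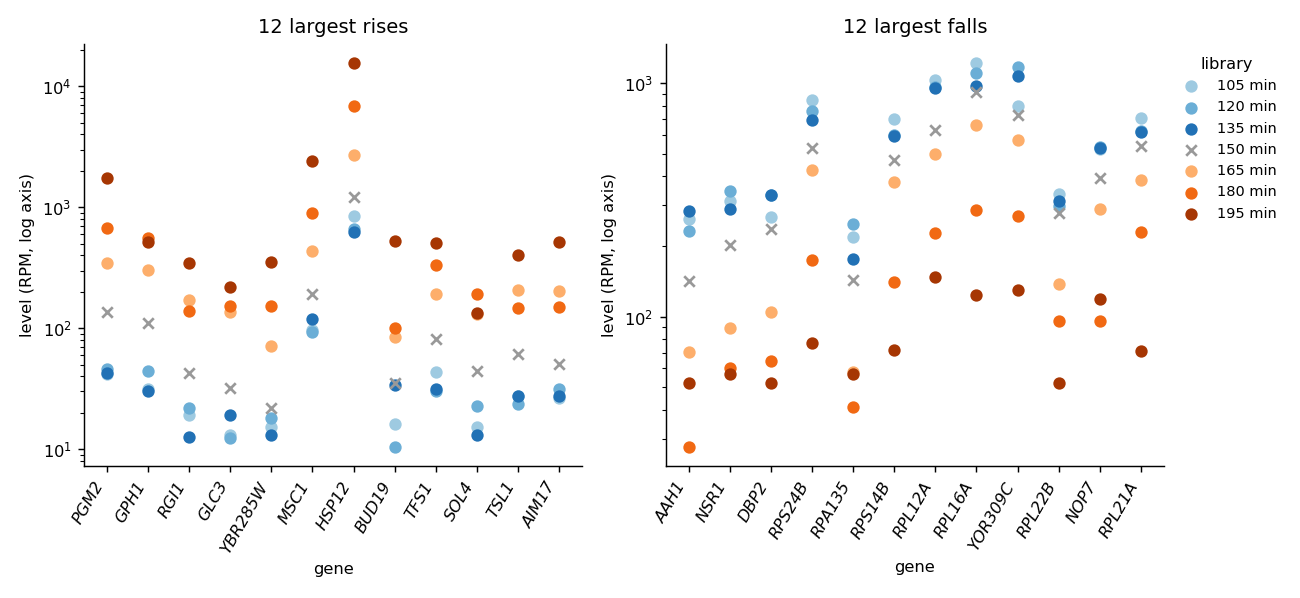
Levels in RPM on a log axis of the 12 genes with the largest called rises and the 12 with the largest called falls. Each point is 1 library, blue for 105 to 135 min, orange to brown for 165 to 195 min and a grey cross for 150 min, which entered no test. PGM2 runs from 41.9 to 1752 RPM and AAH1 from 284 down to 27.6 RPM. Genes were chosen among those whose windows do not overlap, so the gap between blue and orange points is part of the choice.

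The general stress response list, genes of the kind that Msn2 and Msn4 induce under many insults, rose almost as a block. Of its 59 tested genes, 55 rose and 0 fell, with a median log2 change of 2.07, with 49 called higher in centred libraries and 49 to 56 when any 1 library was left out. HSP12, a small membrane-associated heat shock protein, was at 841, 666 and 630 RPM and then at 2686, 6904 and 15538 RPM (log2 change 3.22 ± 0.49, limma adjusted p = 0.000796). The level of HSP12 was higher at each later time point than at the one before. MSC1 went from 97.4, 93.7 and 120 to 436, 889 and 2410 RPM (3.25 ± 0.45). CTT1, the cytosolic catalase, went from 14.1, 21.8 and 9.9 to 75.5, 111 and 161 RPM (2.93 ± 0.39). TFS1, an inhibitor of the vacuolar carboxypeptidase Y, went from 43.4, 30.3 and 31.7 to 193, 333 and 503 RPM (3.20 ± 0.31). SOL4, a 6-phosphogluconolactonase of the pentose phosphate pathway, went from 15.1, 22.7 and 13.2 to 132, 192 and 135 RPM (3.19 ± 0.30). CTT1, TFS1 and SOL4 were under the 51.8 RPM limit in every earlier library, so a lower value at 195 min could not be recorded for them. With the 195 min library left out and its missing genes admitted, 57 of 62 list genes rose and 0 fell, with a median of 1.76. Among the 59 tested genes, the 4 without a call were SSA3, GLR1, TPS1 and AHP1. SSA3, a heat-inducible Hsp70, stayed between 47.1 and 89.7 RPM with overlapping windows.

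Several genes outside these lists were among the 12 largest rises. Those described here were under 51.8 RPM in every earlier library, so they could be tested only through their higher 195 min values. RGI1, a gene induced during respiratory growth, stood at 19.2, 21.8 and 12.5 RPM and then at 170, 138 and 347 RPM (log2 change 3.53 ± 0.35). AIM17, whose product is mitochondrial, stood at 26.7, 31.2 and 27.7 RPM and then at 203, 149 and 518 RPM (3.14 ± 0.37). YBR285W, a gene of unknown function, went from 15.1, 18.0 and 13.2 to 71.0, 151 and 352 RPM (3.35 ± 0.46). BUD19 also entered this group, from 16.1, 10.4 and 33.6 to 83.9, 100 and 523 RPM (3.20 ± 0.61), mostly through its 195 min value. BUD19 is a dubious reading frame that overlaps RPL39, and the sources used here do not state whether counting used strand, so its reads cannot be assigned with certainty.

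Chaperone and antioxidant genes were called in part. Of 31 tested chaperone genes, 9 rose (29.0%, beside 24.8% of all tested genes) and 3 fell (9.68%, beside 9.8%). Both shares were near those of all genes, and the list median was 0.33 beside 0.36. The rises included HSP42, a small heat shock protein (43.9, 55.8 and 50.1 to 258, 195 and 332 RPM; log2 change 2.36 ± 0.24), and the disaggregase HSP104 (304, 293 and 292 to 868, 1117 and 1285 RPM; 1.86 ± 0.21). HSP26 rose by 1.93 ± 0.39 on the same scale. The 3 that fell were SSB1, SSB2 and ZUO1, chaperones known to act at translating ribosomes, and without the 105 or the 120 min library none of the list was called lower. ZUO1 went from 632, 715 and 603 to 486, 324 and 316 RPM (log2 change -0.82 ± 0.22, limma adjusted p = 0.0151), while SSB1 and SSB2 are near-identical copies whose reads were split between them. Of 25 antioxidant genes, 13 rose and 0 fell, with 6 called higher without the 105 or the 135 min library and 6 with centred libraries. The rises were led by CTT1, by the peroxiredoxin TSA2 (1.83 ± 0.31) and by the glutathione peroxidase GPX1 (1.82 ± 0.43).

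Genes of mitochondrial energy metabolism rose by smaller steps. Of 31 tested genes of the respiratory chain and ATP synthase, 21 rose and 0 fell, with a median of 0.69, and of 17 genes of the citric acid cycle 12 rose and 1 fell, with a median of 0.80. The shares of rises, 67.7% and 70.6%, stand beside 24.8% of all tested genes. Both counts lean on the scaling: with centred libraries 5 respiratory and 3 citric acid cycle genes were called higher, and without the 105 min library 6 and 2 were. The largest rises in the first list were not catalytic subunits. They were STF1 and INH1, small proteins that block ATP hydrolysis by the ATP synthase. STF1 went from 117, 126 and 109 to 331, 440 and 1068 RPM (log2 change 2.20 ± 0.34), and INH1 rose by 1.87 ± 0.34. Citrate synthase CIT1 went from 103, 116 and 125 to 174, 233 and 399 RPM (1.15 ± 0.27), and IDH1 and SDH4 rose by 1.3 ± 0.39 and 1.19 ± 0.25.

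Of 18 tested glycolytic and fermentation genes 4 rose (22.2%, beside 24.8% of all tested genes), mostly minor isoforms. That share and the median change of 0.43 were close to those of all genes. PYK2, the pyruvate kinase isoform that does not need fructose 1,6-bisphosphate, went from 50.5, 53.9 and 71.2 to 174, 199 and 363 RPM (log2 change 2.0 ± 0.28, limma adjusted p = 0.000483). TDH1 (2.46 ± 0.39) and ENO1 (2.32 ± 0.37) rose as well. Their close copies gave other values: TDH3, the main glyceraldehyde 3-phosphate dehydrogenase, changed by 0.37 ± 0.32 and ENO2 by 0.18 ± 0.29, neither past the test, although reads were split between these copies. HXK1, the hexokinase linked to non-preferred sugars, was named after its values were seen, and went from 106, 110 and 114 to 737, 1153 and 1026 RPM (3.12 ± 0.20). Of 5 tested hexose transporters, HXT7, a high-affinity transporter that shares reads with near-identical copies, was the 1 that rose, from 11.8, 17.6 and 14.8 to 56.2, 127 and 94.6 RPM. A lower value at 195 min could not be recorded for HXT7, which was under the 51.8 RPM limit in every earlier library. Genes of gluconeogenesis and organic acid use rose in 5 of 10 cases, and in 3 with centred libraries or without the 105 or 180 min library, among them the mitochondrial aldehyde dehydrogenase ALD4 (1.74 ± 0.21), the lactate transporter JEN1 (1.53 ± 0.32) and ACH1 (1.48 ± 0.24).

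The phosphate pathway targets rose further from a level already above that of 0 min, where their median was -1.72 relative to the earlier window. Of 22 tested targets 14 rose (63.6%, beside 24.8% of all tested genes) and 0 fell, with a median of 0.96, and 11 were called with centred libraries. Leaving out 1 library at a time, with these 22 kept, gave 10 to 18 rises. PHO3, a constitutive acid phosphatase placed on the same list, was missing at 195 min and could not be tested, so the 0 falls depend on the listing rule. With the 195 min library left out and its missing genes admitted, 16 of 23 list genes rose and 1, PHO3, fell (log2 change -1.70 ± 0.22). The largest change was that of PHM8, a nucleotide phosphatase, from 45.4, 55.8 and 88.4 to 356, 476 and 720 RPM (log2 change 3.03 ± 0.29, limma adjusted p = 5.02e-05). PHM6 went from 272, 269 and 410 to 828, 1464 and 1716 RPM (2.04 ± 0.29). Both genes increased at every later time, and their windows did not overlap. Among the secreted acid phosphatases, PHO5 went from 785, 948 and 1272 to 2635, 3513 and 6537 RPM (2.0 ± 0.35), and PHO11 and PHO12 rose by 1.35 ± 0.29 and 1.32 ± 0.29. PHO5, PHO11 and PHO12 belong to a family of near-identical copies, and their reads were fractional, which marks reads split between copies, in all 6 libraries. PHO8, the vacuolar alkaline phosphatase with a sequence of its own, went from 73.2, 78.5 and 87.7 to 133, 161 and 202 RPM (1.03 ± 0.22). Enzymes that free phosphate from small molecules also rose: the glycerol 3-phosphatase HOR2 (1.52 ± 0.28) and the glycerophosphocholine phosphodiesterase GDE1 (1.5 ± 0.20).

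Transporters and polyphosphate enzymes gave a mixed picture. PHO84, the high-affinity proton-coupled transporter whose promoter also drives the reporter, was at 616, 745 and 685 RPM and then at 882, 1160 and 1228 RPM (log2 change 0.67 ± 0.23, limma adjusted p = 0.0412), and it lost its call with centred libraries (adjusted p = 0.315) and without the 105, 120, 135 or 180 min library (adjusted p = 0.103 to 0.175). PHO89, the sodium-coupled transporter, went from 171, 188 and 275 to 482, 623 and 446 RPM (1.31 ± 0.22, limma adjusted p = 0.00170). SPL2, which restrains low-affinity uptake, rose from 497, 522 and 706 to 880, 1137 and 1363 RPM (0.96 ± 0.25), a call lost with centred libraries or without the 105, 120 or 180 min library. The 4 genes of the vacuolar polyphosphate polymerase, VTC1 to VTC4, had log2 changes of 0.68, 0.61, 0.32 and 0.38 and none passed the test. The polyphosphatase PPN1, which cuts the same polymer, rose by 0.95 ± 0.21. Inositol pyrophosphates, the messengers that bind SPX domains, are made by KCS1 and VIP1: KCS1 went from 76.7, 82.3 and 111 to 162, 226 and 409 RPM (1.47 ± 0.30), and VIP1 stood at 95.9, 114 and 97.0 and then at 127, 142 and 67.4 RPM (0.06 ± 0.28). DDP1, which removes their pyrophosphate groups, rose by 0.70 ± 0.21. PHO81, the inhibitor of Pho80 and Pho85, had overlapping windows at 216, 190 and 245 and then 274, 386 and 155 RPM (0.23 ± 0.28). PHO86 and ENA1 had log2 changes of 0.62 and 0.54 with no call. Of the 5 tested pathway regulators and low-affinity transporters, PHO2, PHO91, PHO88, GTR1 and SYG1, none was called, and their log2 changes ran from -0.46 for SYG1 to 1.05 for PHO2, which was at the lowest listed level of 51.8 RPM at 195 min. SYG1 was called lower with centred libraries.

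**Figure D2:**
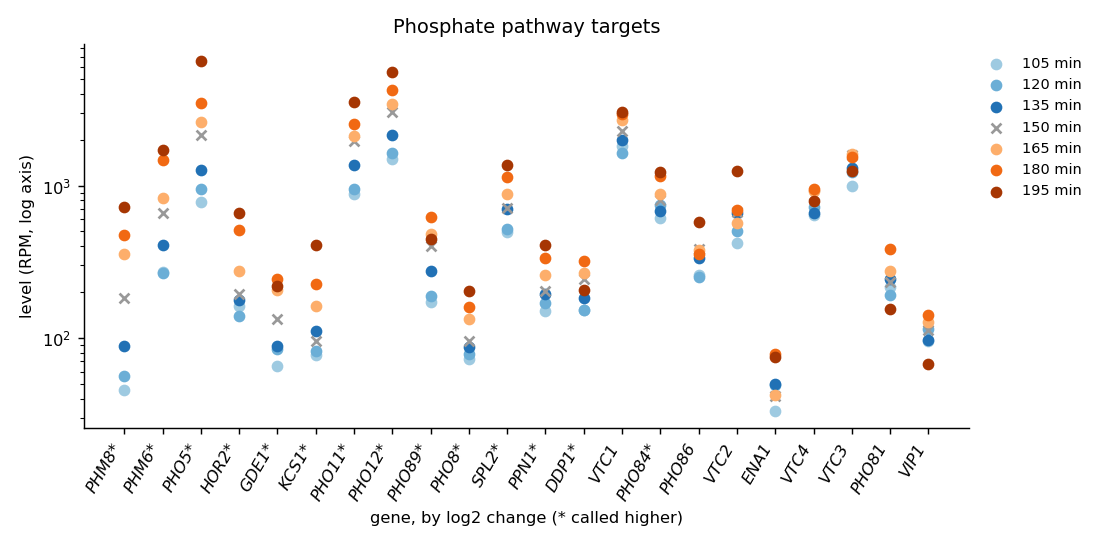
Levels in RPM on a log axis of the 22 tested phosphate pathway targets, ordered by log2 change, with 1 point per library coloured as in the plot of the largest changes. An asterisk marks the 14 genes called higher. The phosphatase and nucleotidase genes at the left separate by window, whereas VTC2, VTC3, ENA1, PHO81 and VIP1 overlap.

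The largest falls were of genes that make ribosomes and the nucleotides they need. AAH1, adenine deaminase of purine salvage, went from 261, 234 and 284 to 70.4, 27.6 and 51.8 RPM (log2 change -2.48 ± 0.30, limma adjusted p = 0.000182). NSR1, a nucleolin-like protein of pre-ribosomal RNA processing, went from 314, 346 and 290 to 89.1, 60.4 and 57 RPM (-2.23 ± 0.22, limma adjusted p = 5.02e-05). DBP2, an RNA helicase, went from 268, 331 and 332 to 105, 64.5 and 51.8 RPM (-2.13 ± 0.26). AAH1 and DBP2 sat at the lowest listed level at 195 min, so that a slightly deeper fall would have taken them out of the comparison. Within the purine and one-carbon list 5 genes rose and 8 fell of 26, and 4 fell without the 105 or the 120 min library. The share of rises, 19.2%, was under the 24.8% of all tested genes, and the share of falls, 30.8%, was above their 9.8%. The falls included the guanine nucleotide enzymes IMD4 (-1.79 ± 0.24) and GUA1 (-1.30 ± 0.22) and the phosphoribosyl pyrophosphate synthetases PRS1 and PRS3. The rises included ADE17, a late enzyme of purine synthesis, from 138, 148 and 132 to 253, 377 and 638 RPM (1.5 ± 0.28), and the one-carbon genes MTD1 (1.47 ± 0.28) and GCV1 (0.89 ± 0.21).

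Cytosolic ribosomal protein genes fell nearly without exception. Of 137 tested genes 130 fell and 0 rose, 77 of 81 in the large and 53 of 56 in the small subunit, with a median log2 change of -1.24. RPL16A, whose reads were whole and thus not shared with a copy, went from 1219, 1109 and 976 to 665, 287 and 124 RPM (-1.93 ± 0.45, limma adjusted p = 0.00805). RPL22B, likewise with whole reads, went from 336, 299 and 314 to 138, 96.2 and 51.8 RPM (-1.84 ± 0.30). Both fell at each step through the later window. The 7 genes without a call were RPL41A, RPL41B, RPL15B, RPL1A, RPS25A, RPS28A and RPS30A, each of which has a paralog. Many ribosomal protein genes exist as near-identical pairs, and 74 of the 137 had fractional reads in all 6 libraries, which mark reads split between copies. Of those 74 genes 70 fell (median -1.26), and of the 28 with whole reads in every library 27 fell (median -1.23). The counts dropped under quantile normalization, which forces the libraries to 1 common distribution and called 52 of the 137 lower, and to 42, 50, 82 and 49 when the 105, 120, 135 or 180 min library was left out, with 0 called higher each time. The share of all listed reads taken by ribosomal proteins was 32.2% ± 0.94 (SD, n = 3) in the earlier and 16.2% ± 6.42 in the later window, a difference for which the exact two-sided permutation test gave p = 0.1, the smallest value that 3 against 3 libraries allow.

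The ribosome biogenesis list, assembly and modification factors that act in the nucleolus and leave the finished ribosome, fell as well. Of 58 tested genes 48 fell and 0 rose, with a median of -1.15, with 54 called lower in centred libraries and 40 to 53 when any 1 library was left out. NOP7, a factor of the large subunit, went from 520, 533 and 530 to 289, 96.2 and 119 RPM (log2 change -1.82 ± 0.33, limma adjusted p = 0.00215). The list has many members of modest level that the 195 min library could not show: without that library 124 could be tested, of which 116 fell, with a median of -1.26. YOR309C, one of the 12 largest falls, is a dubious reading frame over NOP58, and both gave nearly the same log2 changes (-1.89 and -1.75), so they count as 1 signal. Of 16 tested subunits and factors of RNA polymerases I and III, 8 fell and 1 rose, with 5 falls without the 120 min library. The falls were led by the polymerase I subunits RPA135 (219, 251 and 177 to 58.1, 40.9 and 57 RPM; -2.05 ± 0.23), RPA190 (-1.53 ± 0.29) and RPA43 (-1.51 ± 0.22). The rise was that of MAF1, the repressor of polymerase III, from 46.9, 29.3 and 47.5 to 69.1, 126 and 72.6 RPM (1.09 ± 0.30, limma adjusted p = 0.0177), a call lost with centred libraries and without the 120 or 180 min library. MAF1 was under the 51.8 RPM limit in every earlier library, so a lower value at 195 min could not be recorded for it. Of 33 translation factors 11 fell and 0 rose, among them RPG1 of initiation factor eIF3 (-1.23 ± 0.24) and the elongation factor genes EFT2 (-1.20 ± 0.31) and TEF1 (-1.05 ± 0.35), which share reads with their copies. Without the 105 or 120 min library 1 translation factor was called. Of 53 mitochondrial ribosomal proteins 13 rose (24.5%, beside 24.8% of all tested genes) and 0 fell, and 3 were called higher with centred libraries and 2 without the 120 min library.

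**Figure D3:**
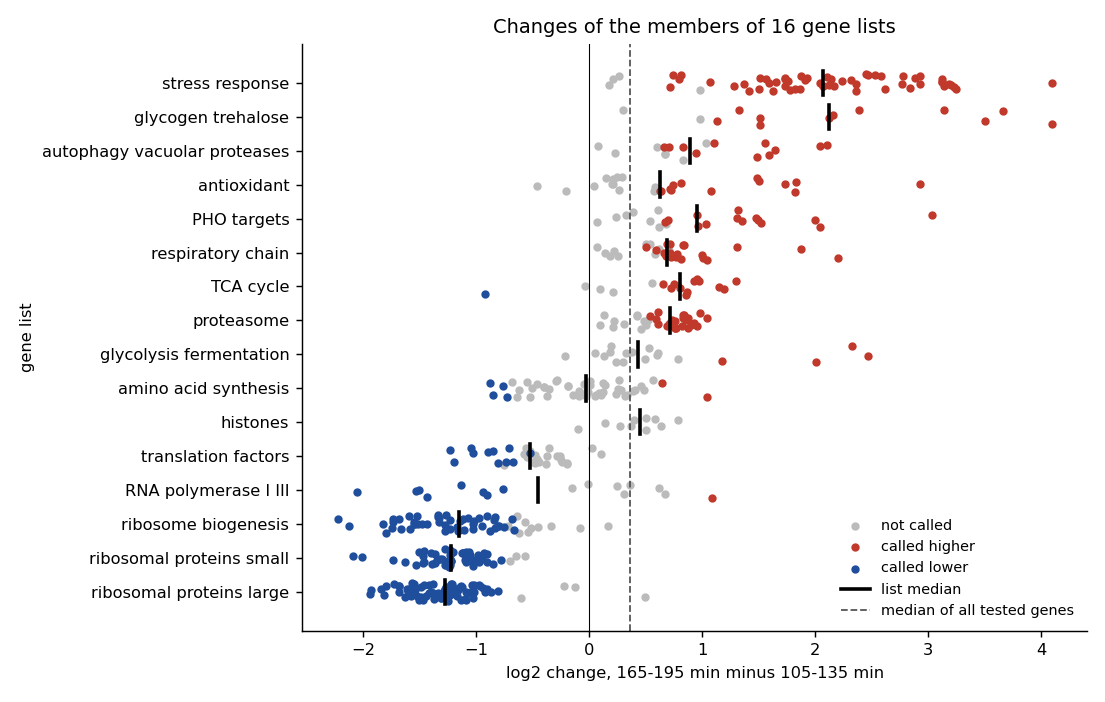
Log2 change between the windows for every tested member of 16 gene lists, 1 point per gene, red where called higher, blue where called lower and grey otherwise, with black bars for the list medians and a dashed line at the median of all tested genes, 0.36. The medians of the stress and storage-carbohydrate lists lie to the right of the line at 2.07 and 2.12, and those of the large-subunit, small-subunit and ribosome biogenesis lists lie to the left at -1.27, -1.23 and -1.15.

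Other lists moved in part, and their counts depended on single libraries and on scaling. Autophagy and vacuolar protease genes rose in 11 of 18 cases with a median of 0.89, 7 of them with centred libraries and 6 without the 120 min library. They were led by PAI3, an inhibitor of proteinase A (61.1, 78.5 and 42.9 to 119, 292 and 466 RPM; log2 change 2.10 ± 0.41), the vacuolar aminopeptidase LAP4 (2.04 ± 0.27) and its cargo receptor ATG19 (1.64 ± 0.32). Genes under nitrogen catabolite control rose in 6 of 13 cases, in 4 with centred libraries or without the 120 min library and in 3 without the 180 min library, with the general amino acid permease GAP1 going from 39.4, 46.4 and 59.4 to 119, 288 and 482 RPM (2.42 ± 0.40) and the repressor DAL80 rising by 2.48 ± 0.55. Of 36 proteasome genes 25 rose by modest amounts (median 0.71, largest 1.04 for ECM29), and 2 were called with centred libraries or without the 120 min library. Of 50 amino acid synthesis genes 2 rose (HIS4 and LYS1) and 4 fell (ARO4, TRP2, BAT1 and THR1), with a median of -0.03. These shares, 4.0% and 8.0%, were under the 24.8% and 9.8% of all tested genes. None of the 50 was called without the 105 min library and none was called lower without the 120 min library, while centring gave 12 falls. Sulfur assimilation genes rose in 6 of 16 cases, in 3 with centred libraries and in 4 without the 105 or 120 min library, led by MET16 (1.43 ± 0.22), MET14 and MET5. Peroxisomal and fatty acid oxidation genes rose in 6 of 13 cases, with ECI1, FAA1 and SPS19 the largest, in 3 with centred libraries, in 1 with quantile normalization and in 2 without the 105 or the 180 min library. Of the nutrient signalling genes 6 of 15 rose, with 3 called in centred libraries, 2 with quantile normalization and 1 without the 105 min library. The rises included YAK1, a growth-restraining kinase whose locus overlaps IRC9 (1.72 ± 0.34), and the transcription factor USV1 (2.24 ± 0.60).

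Lipid, wall and cell cycle genes gave smaller counts, and most of these calls depended on 1 library, since without the 105 min library 2 phospholipid, 3 ergosterol, 2 cell wall, 0 iron and zinc, 0 cyclin and 1 replication genes were called. In the phospholipid list 5 of 17 genes rose (29.4%, beside 24.8% of all tested genes). They were led by OPI3, a methyltransferase of phosphatidylcholine synthesis, from 197, 196 and 266 to 506, 698 and 689 RPM (log2 change 1.52 ± 0.21). CHO1 (1.11 ± 0.23) and INO4 (0.99 ± 0.27) came behind it. In the ergosterol list 5 of 22 rose (22.7%, beside 24.8% of all tested genes), with ERG28, ERG9 and ERG27 the largest. In the cell wall list 4 of 26 rose (15.4%), with SPI1 (1.56 ± 0.27) and SED1 (1.23 ± 0.20) the largest. In the iron and zinc list the zinc regulator ZAP1 and the phosphatase DPP1 were the 2 rises of 13 genes (15.4%). Among Pho85 cyclins PCL1 (74.2, 71.9 and 94.3 to 137, 144 and 306 RPM; 1.19 ± 0.29) and PCL6 (0.77 ± 0.24) rose, of 5 tested. In the G1/S and replication list 9 of 36 rose (25%, again beside 24.8%), PCL1, MNN1 and MCM5 leading. In the G2/M list CLB1 and RME1 rose of 21 (9.52%), and of 10 histone genes none was called. Of the 16 meiosis markers 3 were tested, DIT1, NDT80 and SPS1. All 3 were under 51.8 RPM in every earlier library, so the rule admitted them only through their higher 195 min values. DIT1 and NDT80 rose, from levels of 15.1 to 42.9 RPM to levels of 48.4 to 119 RPM. Of 8 genes of the haploid pheromone response STE18 rose. Without the 120 min library the calls of DIT1, NDT80 and STE18 did not hold.

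Within the later window the groups differed in timing. Relative to the mean of the earlier window, the median of the stress list was 0.69 higher at 150 min and 1.55, 2.11 and 2.54 higher at 165, 180 and 195 min on the log2 scale. The glycogen and trehalose median was 0.75, 1.82, 1.71 and 2.54 higher at these times. By these medians most of the change of both lists had taken place by 165 min, which was the first library of the later window. Both lists hold members under 51.8 RPM in the earlier window, kept only through their 195 min values. The choice of members can therefore raise the 195 min medians. The ribosome biogenesis median changed by -0.26, -0.95, -1.26 and -1.14 with its lowest value at 180 min, whereas the ribosomal protein median changed by -0.20, -0.54, -1.32 and -1.84 with its lowest value at 195 min. At 165 min 26 of the 58 biogenesis genes and 3 of the 137 ribosomal protein genes lay more than 2-fold below their earlier mean, and at 195 min 33 and 129 did. The median of the phosphate targets was 0.36, 0.68, 1.00 and 1.26 higher. The 58 biogenesis genes, of 125 on the list, are those still at or above 51.8 RPM at 195 min. Deeper falls are thus missing from their 195 min median, and whether the list turned after 180 min cannot be told from it. Because the library at 195 min is the shallow one and time points are single, these orders are a description, with no test.

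**Figure D4:**
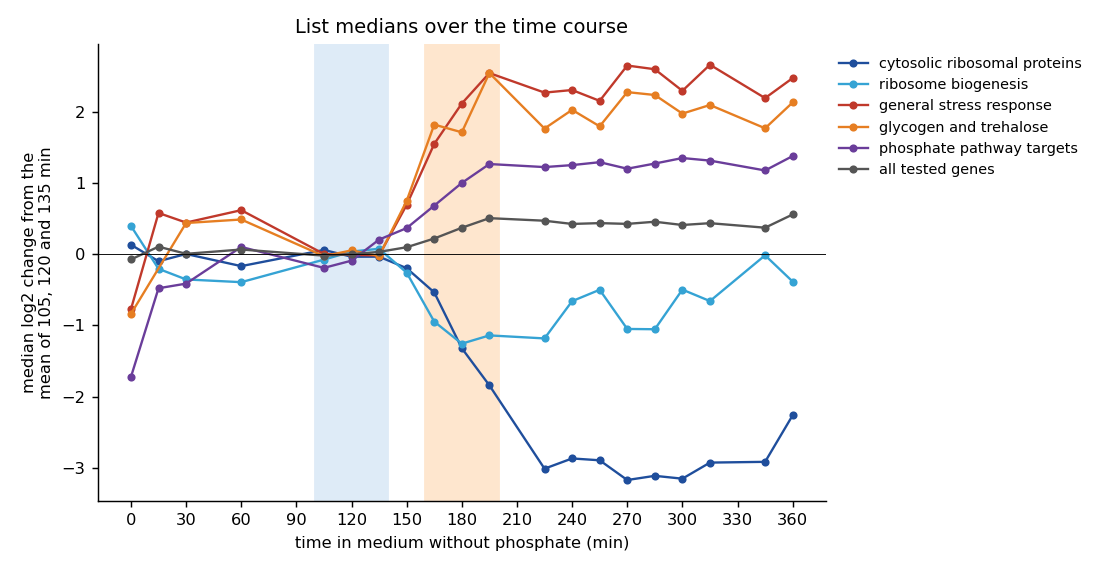
Median log2 change of 5 gene lists and of all tested genes from the mean of 105, 120 and 135 min, against time without phosphate in min, with 1 point per library. Blue and orange bands mark the windows, and libraries under 100000 listed reads are not drawn. The lines lie near 0 at 105 to 135 min and part from 150 min on, with the stress list at 2.54 and the ribosomal proteins at -1.84 at 195 min.

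The step into the later window was set against the steps around it, with the test on the difference of 2 changes per gene. These comparisons share libraries, so their changes are not independent of each other. In the preceding interval, from 15, 30 and 60 min to the earlier window, 0 of 2820 testable genes rose (0%) and 13 fell (0.461%; limma adjusted p), with 250 at an unadjusted p below 0.05. The fit pooled the scatter of all its windows for each gene, and the later window scattered more (median SD 0.34) than the earlier one (0.18). The count of 0 rises therefore does not show a quiet interval, and the intervals also differ in length. The change into the later window differed from this preceding change for 484 genes, in the higher direction for 334 (11.8%) and in the lower direction for 150 (5.32%). Of the stress list 41 of 49 genes differed in the higher direction and of the biogenesis list 41 of 57 in the lower direction, with 47 of 137 ribosomal proteins and 17 of 36 proteasome genes also called. PGM2, for example, changed by -0.59 in the preceding interval and by 4.09 in the later one (difference 4.68 ± 0.66, limma adjusted p = 0.000352). PGM2 was under 51.8 RPM in every library of the earlier window, so it was testable only through its higher 195 min value, which enters this difference. Of the phosphate targets 4 of 22 differed, PHM8, PHM6, GDE1 and PPN1. The count of 484 ran from 116 without the 120 min library to 791 without the 165 min library.

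In the following interval, from the later window to 225, 240 and 255 min, ribosomal protein and ribosome biogenesis genes parted. Of 3029 testable genes 84 rose (2.77%) and 143 fell (4.72%) in it, and its change differed from that into the later window for 168 genes, 60 in the higher (1.98%) and 108 in the lower direction (3.57%). Of the 137 ribosomal protein genes 126 fell in this interval, 124 of which had also fallen in the one before, with a median further change of -1.65, and 2 of the 137 differed between the steps. Of the ribosome biogenesis genes 4 rose and 1 fell in this interval, with a median change of 0.33, and 30 of 58 differed from the preceding change in the higher direction. KRI1, a factor of small-subunit assembly named after its values were seen, changed by -1.80 into the later window and by 1.38 after it (difference 3.17 ± 0.49, limma adjusted p = 0.00225). RPA135, AAH1 and NSR1 likewise changed by 0.17, 0.61 and 0.51 after falls of more than 2 on the log2 scale. Among stress genes 27 of 58, and among glycogen and trehalose genes 7 of 13, differed in the lower direction, their medians changing by 0.36 and 0.02 after the first rise. RGI1, for one, rose by 3.53 and then fell by 1.33 (limma adjusted p = 0.0308), while GPH1 changed by 0.28 after its rise. Both were under 51.8 RPM in every library of the earlier window and testable only through their higher 195 min values. Those values enter the rise and the change after it alike. The count of 168 ran from 49 without the 180 min library to 600 without the 165 min library.

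**Figure D5:**
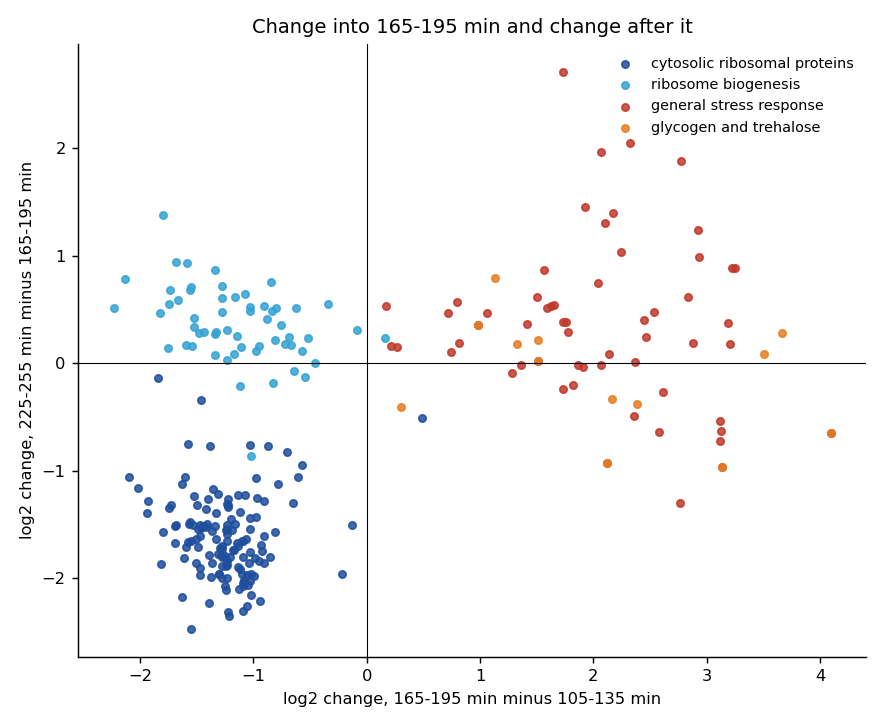
Log2 change of each gene from 105 to 135 min to 165 to 195 min on the horizontal axis and from 165 to 195 min to 225 to 255 min on the vertical axis, 1 point per gene of 4 lists. The axes share the libraries of 165 to 195 min. Ribosomal protein genes lie in the lower left with a median of -1.65 on the vertical axis, and ribosome biogenesis genes, at similar horizontal values, have a vertical median of 0.33.

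Genes that crossed the listing limit fall outside the rule and are given without a test. GIT1, the glycerophosphoinositol permease and a phosphate pathway target, was in none of the earlier libraries and stood at 9.04, 32.7 and 67.4 RPM at 165, 180 and 195 min. HXT5, a hexose transporter of slow-growing cells, was likewise unlisted before and then at 6.46, 32.9 and 77.7 RPM. These 2 were the genes in all 3 later and no earlier libraries, and 14 genes showed the reverse. The 14 include TOD6, a repressor that binds PAC elements, at 35.8, 36 and 20.4 RPM in the earlier libraries, and MSN2, a stress response factor, at 13.1, 11.4 and 6.60 RPM. Both names were chosen after their values were seen. The low levels of most of these genes lie under the limit of the 195 min library, so their absence there carries no information, and the limits of 6.46 and 10.2 RPM at 165 and 180 min apply instead.

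Promoter strings were counted over the same 300-base windows as those printed above, as a description. AGGGG was found in 40.1% of the promoters of higher genes, 13.5% of those of lower genes and 23.2% of all tested genes, and in 71.2% of the stress list. HSP12 carries 2 matches and TSL1 3. GATGAG was found in 41.1% of the promoters of lower genes against 13.4% of higher and 18.0% of all genes, and AAAATTTT in 37.7% against 4.74% and 10.2%. In the biogenesis list these strings were found in 89.7% and 79.3% of promoters, with 3 and 2 matches in NOP7 and 1 of each in NSR1, whereas the promoters of the ribosomal protein genes held them at 10.9% and 7.30%. CACGTG was found in 27.3% of the phosphate targets against 3.31% of all genes, with 3 matches in SPL2. None of the 4 strings is in this window of GPH1, PHM8 or RPL16A.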

How the data were processed

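RNA was measured in 25 libraries, of which 6 carry this comparison. The labels name the NucleoSpin kit and an Illumina HiSeq instrument, and the submitters' processing notes name Bowtie and the R64 build; the counter, the annotation release and the use of strand are not given in the sources used. The authors deposited log2 reads per 1000000 listed reads, with genes under 10 reads in a library left out, as the values themselves show: the lowest value of a library fits 10 reads, and 94.0% to 94.9% of the values in the 6 libraries were then whole reads within 0.01. The labels mention a scaling to the 0 min sample, but every column, that of 0 min included, holds levels and shows no such subtraction. Of 6701 rows, 51 without a name hold no value, and 5964 of the named rows matched R64. The tests used limma 3.58.1 under R 4.3.3 (trend and robust variance moderation, Benjamini-Hochberg over all genes of a fit, two-sided, threshold 0.05), after a check on simulated data. Unlisted values were not filled in. Error terms of log2 changes are limma standard errors. List shares and courses were computed in Python 3.11.15. The members, the 37 gene lists and the tests were chosen with earlier results of these data known. Named genes were the 12 largest non-overlapping called changes in each direction, every tested phosphate gene and the 3 largest called members per direction of each other list; exceptions are marked, and some genes that the rule picks are not reported here. Alternatives covered scaling, filtering, a pseudocount of 10 RPM, the variance model, library and precision weights, a slope of time and leaving out libraries. For the preceding interval the 45 min library, under 100000 listed reads, was left out.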

Additional observations from a re-analysis of the deposited data

Results flagged for a closer look

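The change into 165 to 195 min differed from the change before it, from 15, 30 and 60 min to 105 to 135 min, for 484 genes by the test of the difference (limma, Benjamini-Hochberg adjusted p below 0.05 over 2820 genes). The largest were PGM2 (4.68 ± 0.66 on the log2 scale) and GPH1 (4.58 ± 0.48). Both were under 51.8 RPM in every library of the earlier window, so they were testable only through their higher 195 min values, which enter the difference.

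The change into 165 to 195 min differed from the change after it, to 225 to 255 min, for 168 genes by the same test over 3029 genes. The difference was in the lower direction for 108 of them, with RGI1 (-4.86 ± 0.62) and PGM2 (-4.74 ± 0.72) the largest, and in the higher direction for 60, with KRI1 (3.17 ± 0.49) and AAH1 (3.08 ± 0.64) the largest. RGI1 and PGM2 were likewise testable only through their higher 195 min values, which enter both changes.

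Outside the genes tested, 2 genes, GIT1 and HXT5, were listed in all 3 libraries of 165 to 195 min and in none of 105 to 135 min, which makes them a signal that the test could not include. With the condition eased to 2 of 3 libraries against none, 33 genes met it, and 38 met the reverse.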

How the results depend on the processing

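No paired analysis was possible because the labels give no replicate numbers and the time points of one window have no partners in another. Of the 3052 members, 1055 were called at the deposited scale, 542 with quantile normalization and 1848 with library weights, which gave 180 min the highest and 195 min the lowest weight. The count ran from 462 to 1287 when 1 library was left out. Higher genes numbered 308 with median centring, 351 scaled to reads outside ribosomal protein genes, 264 with quantile normalization and 1426 with library weights, and 333 to 952 when 1 library was left out. Lower genes numbered 515 with the 195 min library left out and its missing genes admitted, and 129 to 343 when 1 library was left out of the members as they were. The difference from the next step ran from 49 to 600 genes, and that from the preceding step from 116 to 791, when 1 library was left out. No gene called at the deposited scale changed sign under any alternative run. Among named genes without a call, PHO81 had a log2 change of -0.10 with centring, -0.069 scaled outside ribosomal protein genes and -0.047 with quantile normalization, and ran from -0.066 to 0.59 when 1 library was left out. VTC3 was at -0.016 with centring. VIP1 was at -0.27, -0.24 and -0.31 under these scalings and ran from -0.14 to 0.40 when 1 library was left out, and PHO91 was at -0.058, -0.023 and -0.074. Of the 132 named genes 36 and 32 lost their call without the 105 or 120 min library, 13 without 135 min, 24 without 180 min and 2 without 195 min. The cause of these shifts was not tested. Depth limits the 195 min library, where a listed value near 51.8 RPM rests on 10 reads, and single time points limit every p-value.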

Other observations

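Genes that the 195 min library could not list moved in the other 5 libraries, by a fit chosen after seeing the data (limma, 2 later against 3 earlier libraries, adjusted over 4839 genes). Of the 1787 genes missing at 195 min alone, 181 were higher (10.1%) and 182 lower (10.2%), with 1 rise and 7 falls of more than 4-fold. These genes were chosen by a level under 51.8 RPM at 195 min, and a gene that rose past it there became a member instead. The balance of rises and falls in this set is therefore shaped by the choice and was not read as a result. FUI1, the uridine permease, went from 138, 117 and 84.4 to 40 and 12.3 RPM (log2 change -2.32 ± 0.37, limma adjusted p = 0.000125). RRS1 and HAS1, ribosome assembly factors, fell by 2.15 and 2.12 on the log2 scale. GDB1, the glycogen debranching enzyme, went from 8.08, 16.1 and 9.24 to 32.3 and 55.2 RPM (1.99 ± 0.40). These 4 names were chosen after their values were seen.

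Of 13 nutrient signalling genes among them, 5 were higher (38.5%), 1 was lower (7.69%) and 7 were not called, namely TOR1, SCH9, RAS1, CYR1, SIT4, SOK2 and PDE1. RIM15, the kinase that promotes entry into the resting state, went from 9.08, 14.2 and 17.2 to 26.5 and 35.8 RPM (log2 change 1.24 ± 0.39, limma adjusted p = 0.0151), and GIS1, a transcription factor downstream of it, rose by 1.25 ± 0.38 and IGO2 by 1.14 ± 0.31. STB3, a repressor that binds the RRPE element, rose by 1.31 ± 0.35, and TPK2, a catalytic subunit of protein kinase A, by 1.53 ± 0.30. IFH1, an activator of ribosomal protein genes, fell from 39.9, 42.6 and 35.6 to 19.4 and 24.6 RPM (-0.85 ± 0.32, limma adjusted p = 0.0407). In the phosphate lists PHO3, a constitutive acid phosphatase that shares reads with PHO5, went from 193, 210 and 198 to 83.8 and 45.6 RPM (-1.70 ± 0.22, limma adjusted p = 6.83e-07). PHO90, a low-affinity phosphate transporter, went from 102, 120 and 95 to 70.4 and 64.5 RPM (-0.64 ± 0.21, limma adjusted p = 0.0215).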
